A study of Mus musculus with 4 samples.

Results

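Accessibility at the genes of forkhead (Fox) transcription factors was examined in fibroblastic reticular cells, the stromal network cells of lymph nodes, which came here from the brachial, axillary and inguinal nodes of mice. The assay was ATAC-seq, where a transposase cuts and tags DNA that is open. The Notch2_cKO libraries came from Ccl19-Cre x Notch2 fl/fl mice, in which Cre is driven from Ccl19 sequence, so that Notch2 is targeted where that driver is active. The control libraries came from Notch2 fl/fl littermates without the Cre, which carry the floxed alleles too. Both genotypes were C57BL/6 mice of 12 weeks, labelled female, with 2 libraries per genotype, and 6 mice were pooled for every library. From each pool 50000 cells with high BP3 and with podoplanin, but without CD31 or CD45, were sorted. Windows of 300 bp were joined across gaps of at most 100 bp, which gave 110110 regions, each represented by its window with the largest summed count. A region belonged to the protein-coding RefSeq gene that the midpoint of this window overlaps, or else to the nearest within 100 kb. By this rule 294 of the 110110 regions were assigned to 33 of 34 listed Fox genes. Foxp3 had no assigned region and enters only the search of promoter sequences. Whether a region regulates its assigned gene is not measured by this assignment.

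Forkhead factors bind DNA through a winged-helix domain, and several can open or hold open chromatin before other factors bind. Members of the FOXC, FOXF and FOXL subfamilies shape mesenchyme in embryos and stromal niches in adults, FOXP members are repressors best known from lymphocytes, lung and brain, and FOXO members are kept out of the nucleus when PI3K and AKT are active. Notch2 is a receptor whose cleaved intracellular part acts with the DNA-binding protein RBPJ.

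Promoter sequences of 19 Fox genes were found in the RefSeq promoter table of build GRCm38.p6, which spans 250 bases before to 50 bases after an annotated start. They were searched on both strands for the forkhead motif GTAAACA, which reads TGTTTAC on the other strand. A second search was for TGGGAA, the core recognised by RBPJ, whose reverse complement is TTCCCA. No match of either motif overlapped a match of the other. Of 24 Fox promoters, 1 held the forkhead motif (4.17%), against 1190 of 32544 promoters of the same length (3.66%), and 3 held the RBPJ core (12.5%), against 8273 (25.4%). A match in a window is a description of its letters and not a bound site. The 5 promoters below are shown because they stand for the results that follow. Foxc1 lies in the chromosome 13 cluster and holds the RBPJ core. Foxj2 has the open Fox promoter of smallest p, and Foxl2 has the promoter whose overlapping region had the largest positive change. Foxo3 has the most accessible promoter and Foxa1 holds the only forkhead motif. Capitals mark a motif match, and sequences without capitals hold neither motif.
Foxc1, chr13:31806396-31806695, plus strand: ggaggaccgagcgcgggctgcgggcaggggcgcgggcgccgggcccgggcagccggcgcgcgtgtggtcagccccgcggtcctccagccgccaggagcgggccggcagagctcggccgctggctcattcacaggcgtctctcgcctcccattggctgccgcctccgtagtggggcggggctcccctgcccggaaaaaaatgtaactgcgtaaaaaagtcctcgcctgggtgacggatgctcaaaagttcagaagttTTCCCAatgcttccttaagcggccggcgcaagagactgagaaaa
Foxj2, chr6:122819934-122820233, plus strand: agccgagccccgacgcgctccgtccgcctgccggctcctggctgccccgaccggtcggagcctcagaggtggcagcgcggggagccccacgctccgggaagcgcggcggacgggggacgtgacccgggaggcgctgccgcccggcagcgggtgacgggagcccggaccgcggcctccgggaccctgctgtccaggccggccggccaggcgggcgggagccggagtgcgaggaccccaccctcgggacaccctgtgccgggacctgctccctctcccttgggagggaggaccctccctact
Foxl2, chr9:98955357-98955656, plus strand: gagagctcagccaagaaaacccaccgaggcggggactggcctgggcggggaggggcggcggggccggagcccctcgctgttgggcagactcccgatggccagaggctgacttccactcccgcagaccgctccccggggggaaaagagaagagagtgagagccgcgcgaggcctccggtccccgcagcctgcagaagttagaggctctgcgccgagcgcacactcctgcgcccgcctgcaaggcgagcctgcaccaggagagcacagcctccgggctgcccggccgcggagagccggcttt
Foxo3, chr10:42276646-42276945, minus strand: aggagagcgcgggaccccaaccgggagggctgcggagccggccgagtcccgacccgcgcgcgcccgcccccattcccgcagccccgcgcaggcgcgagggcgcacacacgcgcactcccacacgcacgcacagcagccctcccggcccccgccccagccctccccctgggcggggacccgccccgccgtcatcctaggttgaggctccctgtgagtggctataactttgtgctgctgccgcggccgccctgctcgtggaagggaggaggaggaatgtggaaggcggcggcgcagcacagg
Foxa1, chr12:57546062-57546361, minus strand: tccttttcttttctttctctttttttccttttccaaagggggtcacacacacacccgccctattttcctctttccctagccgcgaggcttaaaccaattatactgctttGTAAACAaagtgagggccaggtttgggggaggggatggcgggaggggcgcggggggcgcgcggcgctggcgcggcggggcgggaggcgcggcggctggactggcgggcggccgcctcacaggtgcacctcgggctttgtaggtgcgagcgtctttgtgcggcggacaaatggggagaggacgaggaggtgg

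Of the 24 promoters, 8 overlapped a region assigned to the same gene and none of these regions passed the test. The Foxa1 promoter overlapped no such region. At the Foxj2 promoter, which has 37 CpG dinucleotides and 78.3% G and C, the level was 35.5 and 25.5 CPM in Notch2_cKO libraries 1 and 2, against 37.0 and 42.8 CPM in controls 1 and 2 (log2 -0.37, SE 0.13, edgeR adjusted p = 0.0504). The region that overlaps the Foxl2 promoter (27 CpG, 71.3% G and C) had 7.58 and 7.60 CPM in Notch2_cKO. Control had 5.86 and 5.72 CPM there (log2 0.39, SE 0.16, edgeR adjusted p = 0.0937). The counted window of this region ends at 98955350, before the printed Foxl2 promoter begins at 98955357. Neither pair of groups overlaps, and neither difference passed the test. Levels are normalized CPM of a 300-bp window, that is counts set against library size under offsets that a loess curve fits to the mean level. Changes are given as the log2 ratio of Notch2_cKO to control. Their approximate standard error (SE) divides the size of the change by the root of the F statistic from the quasi-likelihood test of edgeR. Adjusted p-values are Benjamini-Hochberg over all 110110 regions, with 0.05 as the threshold.

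Summed over best windows, Notch2_cKO libraries 1 and 2 held 30260067 and 12340742 counts, and controls 1 and 2 held 23629588 and 25740366. The Fox regions took 0.227% to 0.233% of the Notch2_cKO counts and 0.221% to 0.222% of the control counts. Their median count was 102 and 43 in Notch2_cKO, against 82 and 88 in control, and 140 of the 294 had fewer than 100 counts in every library, so small changes at these could not be detected. The Y-linked genes Ddx3y and Eif2s3y had 221 and 201 counts in control 2 and 0 in each other library, which goes against the label of this pool as female. Its part in the results was not tested, and counts are given without it where it moves them.

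Accessibility changed at 67 of the 294 Fox regions: 38 were higher and 29 were lower, by the quasi-likelihood test of edgeR. This is 22.8% of them, beside 23.7% of all 110110 regions (12.5% higher and 11.2% lower), so the family as a whole did not stand out from the background. Its median log2 change was 0.00, against 0.01 over all regions. The changes within the family ran from -2.16 to 2.51, and 27 of the 67 were at least 2-fold (40.3%, against 41.8% of all called regions). The groups did not overlap at 188 of the 294 regions (63.9%, against 59.9% of all regions): both Notch2_cKO libraries were above both controls at 95 (all regions, 30.4%) and below them at 93 (all regions, 29.5%). The groups are separate at each of the 67 called regions. Without control 1 there were 30 higher and 19 lower Fox regions (16.7%, background 16.5%), and without control 2 there were 23 and 19 (14.3%, background 15.6%).

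**Figure D1:**
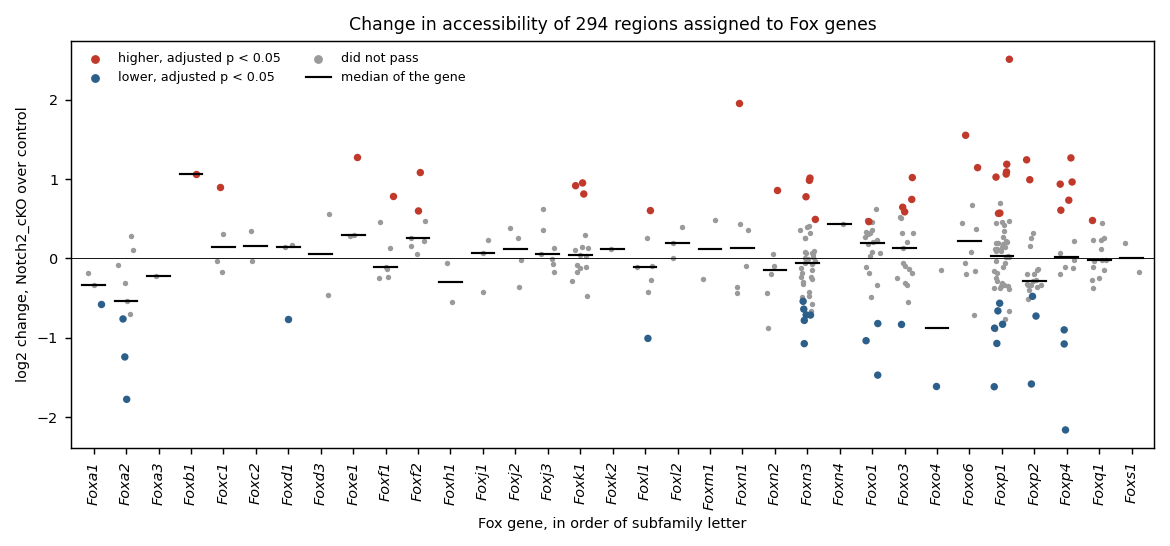
Each point is a region assigned to the Fox gene on the x axis, placed by its log2 change (Notch2_cKO over control), with called regions in colour and the gene's median as a bar. The 38 higher and 29 lower regions are spread over 21 genes, and 7 genes have both kinds.

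The called regions belonged to 21 genes. At 10 of them all called regions were higher, at 4 all were lower and at 7 they went both ways, while 12 genes had no called region. The same counts over all genes were not made, so whether these numbers are particular to the family is not known. Among the 27 regions that lay no more than 1000 bp from an end of their Fox gene, 1 was higher and 1 lower (7.41%), beside 10.2% of all gene-end regions, of which 5.74% were higher and 4.43% lower. Of 136 regions further inside Fox genes 17 were higher and 12 lower (21.3%, beside 25.0%, 13.5% higher and 11.5% lower). Of 131 outside them 20 were higher and 16 lower (27.5%, beside 24.2%). These shares lie near those of all regions in the same positions. The most distant member, 99236 bp from Foxf1, had 6.88 ± 0.12 CPM in Notch2_cKO and 5.00 ± 0.467 CPM in control (SD, n = 2 each). The nearest region left out by the distance limit lay 101873 bp from Foxp2, with 11.1 ± 2.07 CPM in Notch2_cKO and 10.8 ± 0.731 CPM in control.

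**Figure D2:**
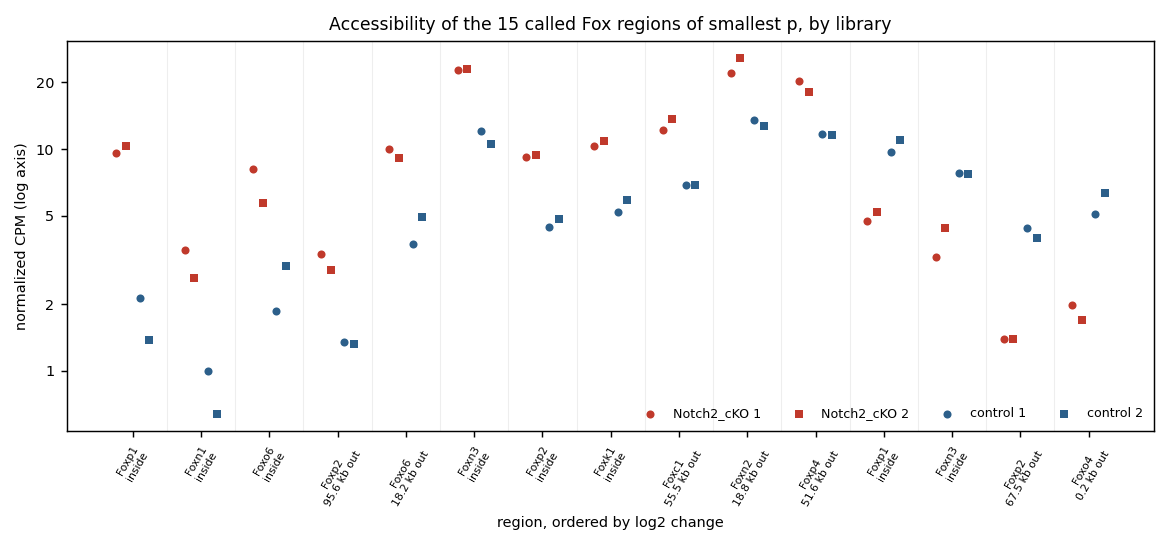
Normalized CPM on a log axis in each of the 4 libraries for the 15 called Fox regions of smallest p, ordered by log2 change, with red for Notch2_cKO and blue for control. Groups that do not overlap were a condition for showing a region, which all 67 called Fox regions met. Levels run from 9.65 and 10.4 against 2.13 and 1.38 CPM inside Foxp1 to 1.97 and 1.70 against 5.11 and 6.34 CPM at the end of Foxo4.

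Of the FOXP subfamily, 14 of 86 regions were higher and 12 lower (30.2%, beside 23.7% of all regions, a difference that was not tested). Foxp1 encodes a repressor needed in developing and resting lymphocytes and has the most regions of the family, 51, of which 7 were higher, 6 lower and 38 did not pass. The Fox region with the smallest p lay inside Foxp1, on chromosome 6 from 99446701 to 99447400. It held 298 and 134 counts in Notch2_cKO libraries 1 and 2, against 48 and 35 in controls 1 and 2. In normalized terms this was 9.65 and 10.4 CPM in Notch2_cKO, against 2.13 and 1.38 CPM in control (log2 2.51, SE 0.21, edgeR adjusted p = 1.13e-07). Both Notch2_cKO libraries thus stood far above either control, and the call held under each of the 15 alternatives run for it. Elsewhere in the same gene, from 99228301 to 99228900, the order was the opposite, with 4.76 and 5.21 CPM in Notch2_cKO against 9.67 and 11.04 CPM in control (log2 -1.07, SE 0.17, edgeR adjusted p = 9.95e-05).

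The other called regions of Foxp1 had log2 changes of 0.57 to 1.19 where higher and of -1.62 to -0.57 where lower. The most accessible Foxp1 region, 754 bp beyond the higher-coordinate end of the gene, had 49.3 ± 0.921 CPM in Notch2_cKO and 50.6 ± 0.83 CPM in control (SD, n = 2 each; log2 -0.04, SE 0.09, edgeR adjusted p = 0.818). An internal promoter of Foxp1, at chr6:99028249-99028548, had 36.7 and 28.8 CPM in Notch2_cKO against 29.2 and 28.1 CPM in control and did not pass either (edgeR adjusted p = 0.237). The 20 regions that flank those of Foxp1 had a median log2 change of 0.01, with 5 higher and 3 lower. The summed counts of all Foxp1 regions did not pass the test (log2 0.07, SE 0.05, edgeR adjusted p = 0.414).

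**Figure D3:**
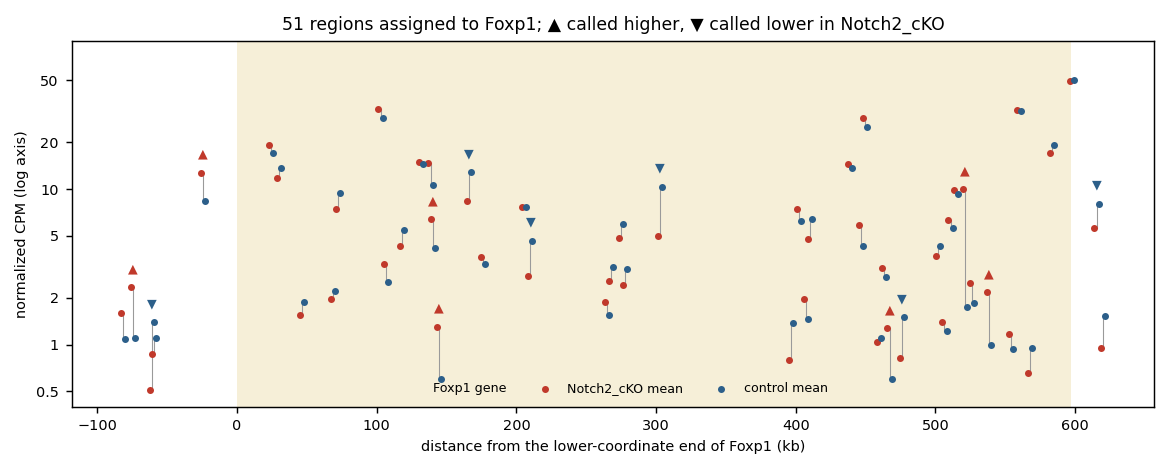
Mean normalized CPM (log axis) of the 51 regions of Foxp1 by their distance from the lower-coordinate end of the gene, with red for Notch2_cKO, blue for control and the gene body shaded. Triangles mark the 7 higher and 6 lower regions, which are interspersed along the gene, while the most accessible regions have nearly equal means.

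Foxp2, a close relative of Foxp1 known from the development of speech and motor circuits, had 2 higher and 3 lower of 21 regions. A region 67473 bp from the gene (15509201 to 15509750 on chromosome 6) had 1.40 and 1.39 CPM in Notch2_cKO, against 4.41 and 3.98 CPM in control (log2 -1.58, SE 0.23, edgeR adjusted p = 4.47e-05). On the same side, 95573 bp from the gene, another had 3.36 and 2.86 CPM in Notch2_cKO against 1.36 and 1.32 CPM in control (log2 1.24, SE 0.24, edgeR adjusted p = 0.000754). Inside the gene a region from 15321201 to 15322000 had 9.16 and 9.40 CPM in Notch2_cKO against 4.44 and 4.85 CPM in control (log2 0.99, SE 0.17, edgeR adjusted p = 0.000197). The most accessible Foxp2 region, inside the gene from 15257151, had 14.6 ± 0.922 CPM in Notch2_cKO and 16.0 ± 1.87 CPM in control (SD, n = 2 each) and did not pass. The summed Foxp2 counts had a log2 change of 0.00 (SE 0.09, edgeR adjusted p = 0.996), with overlapping groups.

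Foxp4, which acts with Foxp1 and Foxp2 in lung, had 5 higher and 3 lower of 14 regions on chromosome 17. The strongest of the higher ones by p lay 51618 bp from the gene (47976051 to 47976600), with 20.4 and 18.0 CPM in Notch2_cKO, against 11.7 and 11.5 CPM in control (log2 0.73, SE 0.14, edgeR adjusted p = 0.000583). A region 733 bp past the end of Foxp4 away from its RefSeq promoter (47866151 to 47866750) had 8.32 and 7.83 CPM in Notch2_cKO, against 4.89 and 3.63 CPM in control (log2 0.94, SE 0.18, edgeR adjusted p = 0.000797). It was the higher of the 2 called gene-end regions of the family. Inside the gene, from 47918851 to 47919350, a region fell to 2.98 and 1.85 CPM in Notch2_cKO, against 5.38 and 5.51 CPM in control (log2 -1.08, SE 0.21, edgeR adjusted p = 0.000884). The most accessible Foxp4 region, 49618 bp from the gene, had 26.4 ± 3.17 CPM in Notch2_cKO and 22.8 ± 0.702 CPM in control (SD, n = 2 each) and did not pass. The largest fall of the family, log2 -2.16 (SE 0.46) at 24318 bp from Foxp4, rests on 9 and 3 counts in Notch2_cKO against 21 and 41 in control.

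In the FOXO subfamily 7 of 53 regions were higher and 5 lower (22.6%, close to the 23.7% of all regions). At Foxo4, on chromosome X, 2 regions were measured with different levels. The region 177 bp beyond the higher-coordinate end of the gene (101260701 to 101261300) had 1.97 and 1.70 CPM in Notch2_cKO, against 5.11 and 6.34 CPM in control (log2 -1.61, SE 0.21, edgeR adjusted p = 1.87e-05). The region at the other end had 21.0 ± 0.0103 CPM in Notch2_cKO and 23.1 ± 1.44 CPM in control (SD, n = 2 each) and did not pass (log2 -0.14, SE 0.12, edgeR adjusted p = 0.448). Chromosome X as a whole had a median log2 change of -0.09, with 260 higher and 409 lower of 3468 regions, and it took 2.46% and 2.51% of the counts in Notch2_cKO against 2.67% and 2.61% in control. Foxo6, a FOXO member best known from brain, had 2 higher and 0 lower of 10 regions. Inside it, on chromosome 4 from 120277201 to 120277950, the level was 8.15 and 5.72 CPM in Notch2_cKO, against 1.87 and 2.97 CPM in control (log2 1.55, SE 0.23, edgeR adjusted p = 4.77e-05).

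A second Foxo6 region, 18178 bp outside the gene (120248651 to 120249250), had 10.0 and 9.09 CPM in Notch2_cKO, against 3.73 and 4.93 CPM in control (log2 1.14, SE 0.18, edgeR adjusted p = 9.14e-05). Its surroundings moved the same way, since 9 of the 20 regions that flank those of Foxo6 were higher and 0 lower, with a median log2 change of 0.41. What part of the change at Foxo6 is shared with its surroundings was not tested. The most accessible Foxo6 region, at a gene end, had 38.8 ± 4.61 CPM in Notch2_cKO and 37.0 ± 1.08 CPM in control (SD, n = 2 each) and did not pass. Foxo3, a regulator of quiescence and stress resistance, had 4 higher and 1 lower of 19 regions, with log2 changes of -0.83 to 1.02. Its region of smallest p, inside the gene on chromosome 10 (42260451 to 42261050), had 5.57 and 6.72 CPM in Notch2_cKO, against 4.54 and 3.20 CPM in control (log2 0.65, SE 0.20, edgeR adjusted p = 0.0235), and lost its call without control 2 (log2 0.40, edgeR adjusted p = 0.333) and with the DESeq2 Wald test (adjusted p = 0.0941). The most accessible window of the whole family lay 1155 bp beyond the higher-coordinate end of Foxo3, the end that holds its promoter, with 84.5 ± 5.7 CPM in Notch2_cKO and 96.1 ± 2.86 CPM in control (SD, n = 2 each). It did not pass (log2 -0.18, SE 0.08, edgeR adjusted p = 0.134).

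Foxo1, which controls metabolism and the homing of lymphocytes, had 1 higher and 3 lower of 22 regions. The region of smallest p, 89591 bp from the gene, had 14 and 3 counts in Notch2_cKO against 28 and 26 in control (log2 -1.47, SE 0.41, edgeR adjusted p = 0.0117). It lost its call without control 1 (edgeR adjusted p = 0.0672), without control 2 (0.0511) and with the DESeq2 Wald test (0.135), and had a log2 change of -2.36 without Notch2_cKO 1. The higher one, 10387 bp from the gene, is far more open, with 16.2 and 15.7 CPM in Notch2_cKO against 12.6 and 10.6 CPM in control (log2 0.46, SE 0.14, edgeR adjusted p = 0.0234). The Foxo1 promoter region did not pass, with 30.1 ± 2.27 CPM in Notch2_cKO and 32.6 ± 2.5 CPM in control (SD, n = 2 each).

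FOXO activity is set by insulin and PI3K signalling, and other genes of this pathway were counted in 2 lists. Among 208 regions of 19 upstream regulators, 17 were higher and 21 lower (18.3%, median log2 -0.03), against 23.7% and 0.01 over all regions. Among 132 regions of 23 known target genes, 14 were higher and 14 lower (21.2%, median log2 -0.04). The regulator counts were 11 and 10 without control 1 and 10 and 13 without control 2. The target gene counts were 8 and 7 without control 1, 11 and 9 without control 2 and 12 and 9 without Notch2_cKO 1. Summed over their regions, the regulators had 2156 and 2167 CPM in Notch2_cKO, against 2257 and 2239 CPM in control. The target genes had 2228 and 2252 CPM in Notch2_cKO, against 2275 and 2287 CPM in control. Both sums were lower in Notch2_cKO without overlap, as groups did not overlap for 60.5% of all gene sums. These differences were not tested. The regions of smallest p were the following. Near Irs2, an adaptor of the insulin receptor, a region had 5.31 and 6.02 CPM in Notch2_cKO, against 1.96 and 1.90 CPM in control (log2 1.53, SE 0.20, edgeR adjusted p = 1.97e-05). Regions inside the receptor genes Insr (log2 1.38, SE 0.20) and Igf1r (log2 0.95, SE 0.17) were higher, and a region inside the kinase gene Akt1 was lower (log2 -1.42, SE 0.26). Among target genes, regions rose near the stress response gene Sesn3 (log2 1.69, SE 0.21), near Ccng2, which encodes a cyclin of resting cells (log2 1.08, SE 0.15), near the cell cycle inhibitor gene Cdkn1b (log2 1.56, SE 0.25) and near the death gene Bcl2l11 (log2 1.24, SE 0.20). Both directions occurred within some of these genes. At Bcl2l11 4 regions were higher and 2 lower, and at Insr 1 was higher and 2 were lower. Akt1 had 0 higher and 2 lower, while Sesn3 and Cdkn1b each had 1 higher and 0 lower. All Sesn3 regions together summed to 132 and 139 CPM in Notch2_cKO, against 149 and 142 CPM in control. Among other target genes, Gadd45a, Gadd45b and Bcl6 had 0 higher and 3, 2 and 2 lower. Sesn1 and Klf15 had 1 higher and 0 lower each.

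In the FOXN subfamily 6 of 53 regions were higher and 6 lower (22.6%, again close to the 23.7% of all regions). Foxn3, a repressor tied to the DNA damage checkpoint, had 40 regions, with 4 higher and 6 lower. A region inside Foxn3 on chromosome 12 (99336401 to 99337100) had 22.7 and 23.0 CPM in Notch2_cKO, against 12.1 and 10.5 CPM in control (log2 1.01, SE 0.14, edgeR adjusted p = 2.1e-05). Another, from 99529801 to 99530400, fell to 3.27 and 4.41 CPM in Notch2_cKO, against 7.83 and 7.74 CPM in control (log2 -1.07, SE 0.19, edgeR adjusted p = 0.000279). As at Foxp1, both directions occurred inside a long gene. Its most accessible window did not pass, with 50.3 ± 4.12 CPM in Notch2_cKO and 49.8 ± 0.822 CPM in control (SD, n = 2 each). Near Foxn2, 18767 bp away on chromosome 17, a region had 22.1 and 25.6 CPM in Notch2_cKO, against 13.5 and 12.7 CPM in control (log2 0.86, SE 0.13, edgeR adjusted p = 0.000101). The gene-end region of Foxn2 is its most accessible, at 54.5 ± 5.84 CPM in Notch2_cKO and 62.9 ± 2.3 CPM in control (SD, n = 2 each), and did not pass.

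Foxn1 is the factor of thymic epithelium, lost in nude mice. A region inside it on chromosome 11 (78363951 to 78364550) held 107 and 34 counts in Notch2_cKO, against 23 and 16 in control, or 3.50 and 2.63 CPM against 0.999 and 0.642 CPM (log2 1.95, SE 0.28, edgeR adjusted p = 4.67e-05). The other 5 Foxn1 regions did not pass, the most accessible at 3.49 ± 1.22 CPM in Notch2_cKO and 2.73 ± 0.327 CPM in control (SD, n = 2 each). Of the 20 regions flanking those of Foxn1, 4 were higher and 0 lower, with a median log2 change of 0.45, and over the 6607 regions of chromosome 11 the median was 0.24, with 1337 higher and 371 lower. How far the change at Foxn1 is that of its chromosome was not tested. The other 2 Fox genes on this chromosome, Foxj1 and Foxk2, had 0 called of 3 and 1 regions. Foxn4, with 1 region at a mean of 0.884 CPM over the 4 libraries, did not pass.

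Foxk1 and Foxk2 encode repressors that can compete with FOXO factors at autophagy genes. Foxk1 had 3 higher and 0 lower of 15 regions, on chromosome 5. The one of smallest p, inside the gene (142412851 to 142413400), had 10.3 and 10.8 CPM in Notch2_cKO, against 5.19 and 5.91 CPM in control (log2 0.92, SE 0.16, edgeR adjusted p = 0.000326). The others lay 20747 and 14497 bp outside the gene (log2 0.95 and 0.81). The most accessible, 33847 bp from the gene, had 36.3 ± 2.4 CPM in Notch2_cKO and 40.9 ± 0.157 CPM in control (SD, n = 2 each) and did not pass, and the flanks of Foxk1 had 6 higher and 1 lower of 20 regions. None of the 14 FOXJ regions passed, Foxj1 being the master factor of motile cilia. The Foxj3 promoter region was the most open of these, with 51.9 and 38.4 CPM in Notch2_cKO and 45.9 and 46.3 CPM in control. The Notch2_cKO libraries there lie on either side of both controls.

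Mesenchymal Fox genes lie in 2 clusters, Foxq1, Foxf2 and Foxc1 on chromosome 13 and Foxf1, Foxc2 and Foxl1 on chromosome 8. In the chromosome 13 cluster 4 of 25 regions were higher and 0 lower (16%, median log2 0.16), and in the chromosome 8 cluster 2 of 16 were higher and 1 lower (18.8%, median log2 -0.10). Both shares are below the 23.7% of all regions. By direction, 12.5% of all regions were higher and 11.2% lower. In the chromosome 13 cluster 16% were higher and 0% lower, and in the chromosome 8 cluster 12.5% and 6.25%. Summed over the chromosome 13 cluster, the level was 201 and 195 CPM in Notch2_cKO, against 166 and 178 CPM in control. These groups do not overlap, as was so for 60.5% of all gene sums. Over the chromosome 8 cluster the level was 98.1 and 83.5 CPM in Notch2_cKO, against 88.7 and 94.3 CPM in control. There the groups overlap. The 20 regions that flank the chromosome 13 cluster had a median log2 change of -0.11, with 4 higher and 2 lower.

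Foxc1 is needed by the reticular niche cells of bone marrow. A region 55496 bp from it (31750851 to 31751500) had 12.2 and 13.7 CPM in Notch2_cKO, against 6.87 and 6.86 CPM in control (log2 0.90, SE 0.15, edgeR adjusted p = 0.000232). The Foxc1 promoter printed above did not pass, with 19.8 and 18.3 CPM in Notch2_cKO, against 21.7 and 21.5 CPM in control (log2 -0.18, SE 0.12, edgeR adjusted p = 0.343). Foxf2, a factor of gut, palate and pericyte mesenchyme, had 2 higher regions of 7. Inside the gene (31629301 to 31630000) the level was 9.35 and 8.32 CPM in Notch2_cKO, against 5.37 and 6.39 CPM in control (log2 0.60, SE 0.17, edgeR adjusted p = 0.0125). At 36794 bp from it the level was 2.68 and 2.86 CPM in Notch2_cKO, against 1.35 and 1.24 CPM in control (log2 1.08, SE 0.25, edgeR adjusted p = 0.00296). Foxq1 had the most open region of the cluster, 51170 bp from the gene, at 34.3 ± 0.424 CPM in Notch2_cKO and 29.3 ± 2.3 CPM in control (SD, n = 2 each), which did not pass. Closer by, 39570 bp from the gene, a region had 24.7 and 30.5 CPM in Notch2_cKO, against 20.2 and 18.9 CPM in control (log2 0.48, SE 0.13, edgeR adjusted p = 0.00985).

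**Figure D4:**
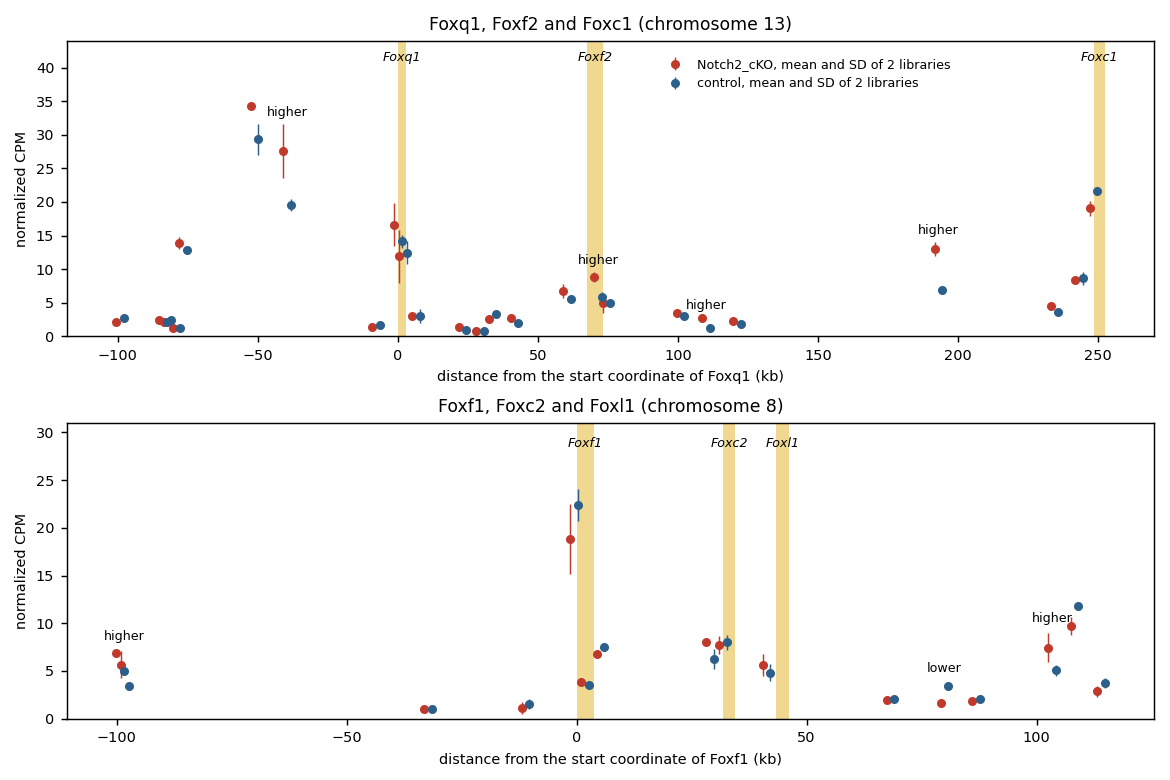
Mean normalized CPM with the SD of 2 libraries for each region of the Fox clusters on chromosomes 13 (top) and 8 (bottom), by distance from the first gene, with red for Notch2_cKO, blue for control and the genes shaded. Called regions carry the words higher or lower: 4 higher in the top panel, 2 higher and 1 lower in the bottom one, none of them at a gene end.

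In the chromosome 8 cluster, Foxf1, which directs the mesenchyme of lung and gut, had 1 higher region of 7, at 98236 bp from the gene with 6.63 and 4.63 CPM in Notch2_cKO, against 3.65 and 3.13 CPM in control (log2 0.79, SE 0.20, edgeR adjusted p = 0.00713). Its gene-end region had 18.8 ± 3.67 CPM in Notch2_cKO and 22.4 ± 1.68 CPM in control (SD, n = 2 each) and did not pass. Neither of the 2 regions of Foxc2, a factor of lymphatic valves, passed. Foxl1, which marks subepithelial mesenchyme of the gut, had 1 lower region (log2 -1.01, SE 0.23) and 1 higher (log2 0.60, SE 0.18), 33706 and 57106 bp from the gene. Its most accessible region, 62006 bp away, had 9.67 ± 0.947 CPM in Notch2_cKO and 11.8 ± 0.358 CPM in control (SD, n = 2 each) and did not pass.

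FOXA factors open chromatin in endoderm and liver. Of their 13 regions 4 were lower and 0 higher (30.8%, median log2 -0.33). Over all regions 23.7% were called and 11.2% were lower, and the difference in shares was not tested. At Foxa2 3 of 9 were lower. That of smallest p, 80581 bp from the gene, held 25 and 3 counts in Notch2_cKO, against 45 and 60 in control (log2 -1.78, SE 0.35, edgeR adjusted p = 0.000937). The log2 change was -3.23 without Notch2_cKO 1 and -1.43 without Notch2_cKO 2. The most accessible Foxa2 region, 1681 bp from the gene, had 12.6 ± 0.8 CPM in Notch2_cKO and 11.7 ± 0.308 CPM in control (SD, n = 2 each) and did not pass. At Foxa1 the region 35128 bp from the gene had 4.82 and 6.68 CPM in Notch2_cKO, against 8.84 and 7.77 CPM in control (log2 -0.58, SE 0.18, edgeR adjusted p = 0.0249). Surrounding regions also leaned downward, since the flanks of Foxa2 had 1 higher and 6 lower of 20 (median log2 -0.14) and those of Foxa1 2 higher and 5 lower (-0.21). The part of this surrounding shift in the FOXA values was not tested. Among the remaining genes, single regions were higher at Foxb1, a factor of the diencephalon (log2 1.06), and at Foxe1 of the thyroid (log2 1.28), and 1 was lower at Foxd1, which marks stromal progenitors of the kidney (log2 -0.77). The 2 regions each of Foxd3, Foxh1, Foxm1 and Foxs1, the 3 of Foxl2 and the 1 of Foxa3 did not pass. Foxm1, which drives mitotic genes, was barely open, at 3.55 and 3.55 CPM in Notch2_cKO and 3.19 and 3.38 CPM in control summed over its regions, whereas Foxs1, a gene seen in pericytes, summed to 59.3 and 56.8 CPM in Notch2_cKO and 58.1 and 57.5 CPM in control.

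Accessibility assigned to each gene was also summed and tested over 17689 genes, a second summary of the same counts. Of 33 Fox genes 6 were higher and 2 lower (24.2%, beside 18.5% of all genes, of which 10.3% were higher and 8.17% lower). The groups did not overlap for 20 of the 33, beside 60.5% of all genes. Foxf2 reached 33.2 and 36.1 CPM in Notch2_cKO, against 25.8 and 27.1 CPM in control (log2 0.38, SE 0.10, edgeR adjusted p = 0.0214). Foxq1 reached 140 and 132 CPM in Notch2_cKO, against 106 and 118 CPM in control (log2 0.28, SE 0.07, edgeR adjusted p = 0.016). Foxp4 reached 115 and 101 CPM in Notch2_cKO, against 86.9 and 89.9 CPM in control (log2 0.29, SE 0.08, edgeR adjusted p = 0.0172). These 3 genes had small changes, and the groups were separate at every called Fox gene sum. At Foxq1 1 of 14 regions was higher and 13 did not pass, with a median log2 change of -0.02. Foxo6 had 102 and 89.95 CPM in Notch2_cKO, against 79.3 and 82.5 CPM in control (log2 0.26, SE 0.08), and Foxo1 had 146 and 141 CPM in Notch2_cKO, against 122 and 129 CPM in control (log2 0.20, SE 0.06). Foxb1, with 1 region, held 50 and 37 counts in Notch2_cKO, against 24 and 24 in control (log2 1.11, SE 0.32). The lower sums were at Foxo4 and Foxa1. Foxo4 had 23.8 and 25.0 CPM in Notch2_cKO, against 30.2 and 33.0 CPM in control (log2 -0.38, SE 0.11). Foxa1 had 8.90 and 12.5 CPM in Notch2_cKO, against 15.6 and 13.7 CPM in control (log2 -0.50, SE 0.16). The edgeR adjusted p-values of these 5 Fox genes ran from 0.0241 to 0.0496. With TMM, DESeq2 size factors or median centring in place of loess offsets the calls at Foxo4, Foxa1, Foxo1, Foxo6, Foxp4 and Foxq1 were lost, all with the same sign, and those at Foxf2 and Foxb1 held. Foxf2 lost its call without control 1 (edgeR adjusted p = 0.208), without control 2 (0.0912) and with genes within 10 kb (0.0855), and Foxb1 without Notch2_cKO 2 (edgeR adjusted p = 0.0636) and with the DESeq2 Wald test (adjusted p = 0.0977). With regions within 10 kb alone, the log2 change was 0.10 at Foxp4, 0.12 at Foxq1, 0.13 at Foxo6 and 0.06 at Foxo1, and none of these 4 passed. Without Notch2_cKO 1 it was -0.22 at Foxa1, 0.15 at Foxo6 and 0.19 at Foxp4, and these did not pass either. Without control 1 there were 2 higher and 0 lower Fox genes, without control 2 there were 3 and 0, without Notch2_cKO 1 there were 3 and 4, and without Notch2_cKO 2 there were 7 and 3.

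**Figure D5:**
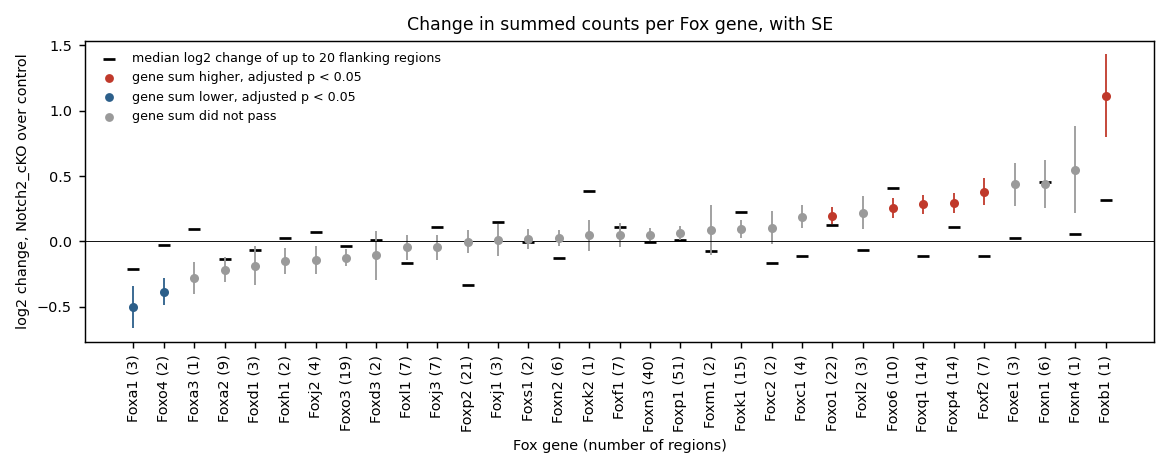
Log2 change (Notch2_cKO over control) of the summed counts of 33 Fox genes with SE bars, ordered by size, with the number of regions in parentheses. The 6 higher and 2 lower sums are coloured, and black dashes give the median log2 change of the flanking regions of each gene, which lies on the same side of 0 as the sum for 6 of these 8 genes and on the other side for Foxf2 and Foxq1.

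Summed by subfamily, with no test, the groups did not overlap for FOXA, FOXB, FOXC, FOXE, FOXF, FOXH, FOXM and FOXQ, that is for 8 of 16 subfamilies, beside 60.5% of all gene sums. The sum was 59.4 and 58.9 CPM in Notch2_cKO, against 71.2 and 72.6 CPM in control, for FOXA. It was 61.1 and 60.3 CPM in Notch2_cKO, against 53.1 and 56.9 CPM in control, for FOXC, and 124 and 119 CPM against 102 and 111 CPM for FOXQ. With 2 libraries per genotype an exact permutation p cannot go below 0.333. For the large subfamilies the groups overlapped: FOXP had 552 and 577 CPM in Notch2_cKO and 571 and 528 CPM in control, and FOXO had 476 and 445 CPM in Notch2_cKO and 452 and 463 CPM in control.

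Markers of the sorted cells and of others were measured in the same way. Of 12 fibroblastic reticular cell markers 10 had regions, summing to 1220 to 1322 CPM in Notch2_cKO and 1234 to 1237 CPM in control. Ccl19 and Ccl21a had no assigned region. Of the 121 regions 15 were higher and 7 lower (18.2%, beside 23.7% of all regions). Dcn had 96.5 and 106.8 CPM in Notch2_cKO and 71.5 and 80.2 CPM in control. Pdgfra and Pdpn were also above both controls. Pdgfrb went the other way, with 82.1 and 81.2 CPM in Notch2_cKO and 89.3 and 89.8 CPM in control. Ltbr was also below both controls. The groups overlapped at the other markers with regions. The 5 measured of 6 lymphatic endothelial markers summed to 159 to 174 CPM in Notch2_cKO and 198 to 213 CPM in control. This difference lay mostly at Reln, with 63.0 and 74.9 CPM in Notch2_cKO and 109.6 and 101.9 CPM in control. Prox1 was also below both controls, with 39.2 and 35.8 CPM in Notch2_cKO and 42.5 and 42.2 CPM in control. Flt4 was above them, with 30.1 and 31.04 CPM in Notch2_cKO and 28.7 and 23.96 CPM in control. Those of blood endothelium, 6 of 6, summed to 319 to 338 CPM in Notch2_cKO and 267 to 268 CPM in control. Here Tek had 112 and 118 CPM in Notch2_cKO and 79.1 and 76.7 CPM in control, and Cdh5 had 111 and 103 CPM in Notch2_cKO and 78.0 and 81.3 CPM in control. Kdr went the other way, with 36.0 and 31.6 CPM in Notch2_cKO and 40.5 and 39.9 CPM in control. The 6 measured of 8 leukocyte markers summed to 106 to 109 CPM in Notch2_cKO and 113 to 123 CPM in control. Mural cell markers, 5 of 5, summed to 287 to 306 CPM in Notch2_cKO and 305 to 309 CPM in control. Among them Rgs5 had 45.2 and 45.8 CPM in Notch2_cKO and 33.6 and 37.0 CPM in control. Mcam went the other way, with 14.0 and 15.7 CPM in Notch2_cKO and 23.5 and 23.3 CPM in control. Cycling cell markers, 5 of 5 with Foxm1, summed to 236 to 244 CPM in Notch2_cKO and 218 to 229 CPM in control. Mki67 had 75.3 and 69.9 CPM in Notch2_cKO and 53.7 and 58.2 CPM in control. Top2a and Foxm1 were also above both controls. Cdk1 went the other way, with 93.5 and 92.1 CPM in Notch2_cKO and 97.9 and 99.2 CPM in control. Ccnb1 was also below both controls. Of 4 regulatory T cell markers, the 3 other than Foxp3 summed to 189 to 203 CPM in Notch2_cKO and 209 to 219 CPM in control. In sorted bulk cells, a change in the share of cells with an open region and a change per cell cannot be told apart. The part of these marker differences in the Fox values was not tested.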

How the data were processed

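ATAC-seq of 4 libraries was analysed, 2 per genotype, grouped by their titles. The deposited counts are whole numbers for 678058 overlapping windows of 300 bp. The labels call them loess-normalized with csaw, but their totals run from 80428121 to 196562399 and a trend with level remains between libraries, so they were used as counts to which no scaling had been applied. The submitters' processing notes name the build mm10 and the tools Bowtie2 2.4.5, Trim Galore 0.6.7 with cutadapt, deepTools, SAMtools 1.14 and Picard 2.27.5. The window filter and any transposase shift were not stated there. Merged windows formed regions of 600 bp (median), which were assigned to 21896 protein-coding RefSeq genes of GRCm38.p6, the shortest where several overlap. No strand was used for gene ends.

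Loess offsets in the manner of csaw (span 0.3) were computed with limma 3.58.1, and genotype was fitted without a replicate term with edgeR 4.0.16 in R 4.3.3 over all regions and over all gene sums, with Benjamini-Hochberg adjustment. The fits were also run on counts simulated from the fitted model itself, which cannot show whether that model suits 2 pools per genotype. Intervals are not given for single counts. Replicates are separate pools per the labels. DESeq2 1.42.0, limma, other scalings, filters, distances, a replicate block and each library left out were alternatives. The Fox genes and all lists were chosen with earlier results of these data known. Named are the 15 called regions of smallest p whose groups do not overlap, the called region of smallest p of genes with 3 or more, the most accessible region of genes described, called gene sums and up to 4 genes per pathway list; other called regions were named after their values were seen. Figures were drawn with Python 3.11.15 and matplotlib 3.10.9.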

Additional observations from a re-analysis of the deposited data

How the results depend on the processing

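All 67 called Fox regions kept their sign in every alternative that gave them a value. The number called in the same direction was 67 with TMM, 66 with DESeq2 size factors, 67 with median centring, 60 with limma-trend and 24 with the DESeq2 Wald test. Median centring, TMM and size factors moved the median log2 of all regions by less than 0.02.

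Counts below are higher and lower. With the DESeq2 Wald test there were 14 and 11 Fox regions (all regions 7364 and 5433, FOXO regulators 9 and 10, FOXO target genes 6 and 6, Fox gene sums 1 and 0). At adjusted p under 0.01 there were 20 and 14 (all regions 8526 and 7031, regulators 10 and 10, targets 7 and 5, gene sums 0 and 0). With genes within 10 kb there were 20 and 15 (regulators 7 higher, targets 8 and 5, gene sums 1 and 1), and for gene bodies with 1 kb 18 and 13 (7 and 13, 6 and 1, 1 and 1); these hold fewer regions, and the Foxo1 sum turned to -0.019. Lower gene sums numbered 0 with TMM, size factors or median centring and 1 with limma-trend or without chromosome 11.

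With 1 library left out, the lone library of a genotype was taken to vary as the others do. Fox regions then numbered 23 to 39 higher and 19 to 33 lower, all regions 8939 to 15497 and 7993 to 14732, regulators 10 to 20 and 10 to 30, targets 8 to 15 and 7 to 16, and gene sums 2 to 7 and 0 to 4.

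The shared numbers of the libraries do not pair them by the labels, and replicate deviations correlated at -0.201 between genotypes. The replicate block gave 36 and 26 Fox regions (21.1%, beside 20.9% of all regions) and 4 and 1 gene sums. A crossed block, chosen after seeing the data, gave 48 and 43 Fox regions (31%, beside 31.8% of all regions) and 8 and 4 gene sums. Depth limits small changes, since Notch2_cKO 2 has the fewest counts.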
